A study of Homo sapiens with 11 samples.

Results

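CUL4A occupancy was examined across the replication origins of U2OS, a human osteosarcoma cell line, by the width of each origin and by how many origins lay around it. The members were all origins of the deposited U2OS list on chromosomes 1 to 22, 126050 of the 127325 origins listed, and all CUL4A regions on the same chromosomes, 55717 of 56715. The whole series held 407030 regions in 8 lists from 11 samples, with 1 sample per assay and condition. Both U2OS lists came from cells with intact RepID (WT) that were neither synchronized nor treated. Origins were mapped by sequencing nascent strands, the short newly made DNA that resists lambda exonuclease through its RNA primer, and CUL4A by ChIP-Seq with an antibody against CUL4A called against IgG. CDT2, H3K4me3 and H3K9me3 ChIP-Seq in U2OS and the origins of HCT116 RepID KO cells were used for comparison, the last from a colon carcinoma line in which RepID was disrupted. The description of the series names U2OS cells that stably overexpress full-length FLAG-RepID as the source of the CDT2 list. A mixture of cell-cycle phases underlies each list, so a shared position does not place CUL4A and initiation in the same cell or phase.

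Replication origins are licensed in G1, when the loading factors CDC6 and CDT1 place the MCM helicase on DNA, and a subset of the licensed sites fires in S phase. CUL4A forms the backbone of CRL4, a ubiquitin ligase that binds its substrates through exchangeable receptors (DCAFs) such as CDT2 and RepID. CRL4 carrying CDT2 marks CDT1 for degradation once replication begins, which helps to keep an origin from being licensed again in the same cycle.

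Every origin and CUL4A region lay on a grid of 200 bp, and the term island is used below for a CUL4A region. Origins ranged from 200 to 217400 bp with a median of 2400 bp, and CUL4A islands from 200 to 66600 bp with a median of 2000 bp. Because of the grid, the 4 width classes are given here by the widths they can hold, 200-1000, 1200-3000, 3200-10000 and over 10000 bp. An origin was counted as occupied when it shared at least 1 bp with an island. Of all origins, 37589 were occupied, or 29.8%, and this is the background against which the classes are read. A wide region meets an island more often by its length alone. Therefore, each origin was given an expectation, the share of all grid positions in the 1 Mb windows of its chromosome that hold an origin at which a region of its own width would meet an island. A local expectation used only positions in the origin's own 1 Mb window. Both were calculated from every position and include the islands that lie at origins. Intervals are Wilson 95% intervals. They cover counting error only and treat neighbouring regions as independent. The spread between chromosomes, or how many of them kept an order, is given for all origins and for the width and density classes. Divisions by score, neighbour distance, small islands and other lists have no such spread beside them. Because each assay had 1 sample, no test between conditions was possible and no p-value is given. The lists hold positions and scores only, so the cell line and antibody could not be checked against marker genes, and the depth of the samples is unknown.

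The share of occupied origins rose with width. Among origins of 200-1000 bp, 3738 of 18949 were occupied, a share of 19.7% (19.2 to 20.3%). The share was 22.9% (22.6 to 23.2%) among the 63243 origins of 1200-3000 bp and 40.4% (39.9 to 40.9%) among the 39286 origins of 3200-10000 bp. Of the 4572 origins over 10000 bp, 3506 were occupied, a share of 76.7% (75.4 to 77.9%). None of these intervals overlapped, and the order held on each of the 22 chromosomes for every pair of classes.

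In narrower steps the rise was uneven. From 600 to 1000 bp the share stayed between 19.8 and 20.6%, and for origins of 200 bp it was 14.2% (42 of 295). It reached 53.8% at 6200 to 8000 bp, 71.9% at 10200 to 15000 bp and 93.8% at 30200 to 50000 bp. Of the 74 origins above 50000 bp, 72 were occupied. The share did not jump at the class limits. Origins of 1000 and 1200 bp were at 19.8 and 21.1%, those of 3000 and 3200 bp at 26.9 and 27.7%, and those of 10000 and 10200 bp at 65.6 and 65.9%.

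**Figure D1:**
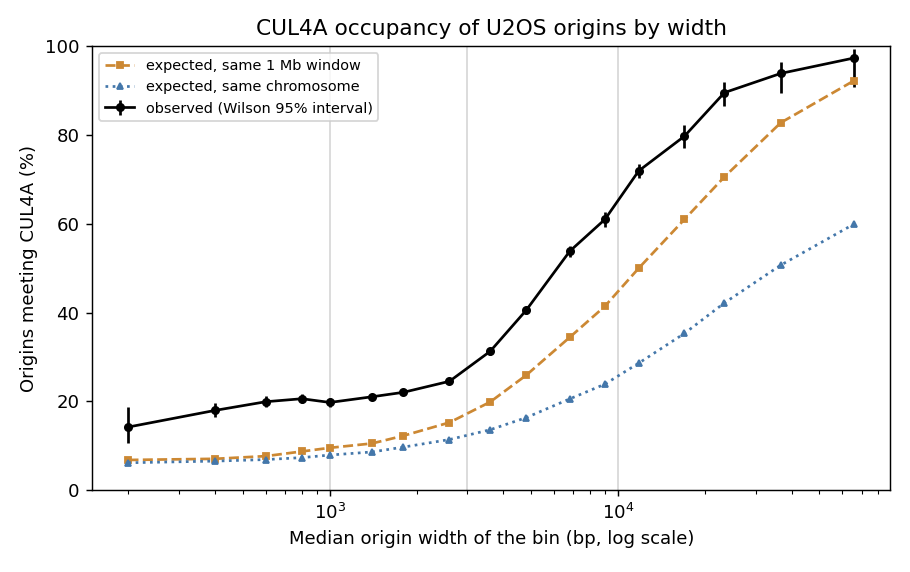
Share of U2OS origins sharing at least 1 bp with a CUL4A island (y axis, %) against the median width of 17 width bins (x axis, bp, log scale), with Wilson 95% intervals. The dashed and dotted lines are the calculated expectations within the same 1 Mb window and within occupied windows of the same chromosome, and grey lines mark 1000, 3000 and 10000 bp. Observed shares ran from 14.2 to 97.3% and lay above both expectations in every bin, although in the widest bin the interval included the local expectation.

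Width alone would give part of this rise. The chromosome expectation was 7.31% for origins of 200-1000 bp, 10.2% for 1200-3000 bp, 16.5% for 3200-10000 bp and 32.8% for those over 10000 bp. Observed shares were 2.70-fold (2.62 to 2.78), 2.24-fold, 2.45-fold and 2.33-fold (2.30 to 2.37) above it. Relative to an expectation that knows the width, the widest origins were therefore not the most enriched, and the classes lay close together. The order of these folds was not stable. The narrowest class was higher than the widest on 12 of 22 chromosomes. It was lower when at least 50% of the origin had to be covered (3.01 against 7.74-fold), when a gap of up to 1 kb was allowed (1.93 against 2.22-fold), with the stronger 50% of islands (2.11 against 3.26-fold) and with each origin replaced by 1 kb around its centre (2.52 against 4.53-fold).

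Against the local expectation, which keeps the regional abundance of CUL4A, the fold fell step by step with width. It was 2.32-fold at 200-1000 bp, 1.74-fold at 1200-3000 bp, 1.56-fold at 3200-10000 bp and 1.36-fold over 10000 bp. The narrowest class had the highest local fold of all classes on 22 of 22 chromosomes. A fold has a ceiling where the expectation is high, however, and for origins over 10000 bp the local expectation was 56.5%, so that full occupancy would have been 1.77-fold. On a scale of percentage points the order was different. Observed occupancy lay 11.2 points above the local expectation at 200-1000 bp, 9.72 at 1200-3000 bp, 14.4 at 3200-10000 bp and 20.2 over 10000 bp. The odds ratio against the local expectation was 2.65 for the narrowest and 2.54 for the widest class, against 1.96 and 1.93 for the classes between them. Occupancy was above the local expectation in all 4 classes, and which class stood highest depended on the scale.

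**Figure D2:**
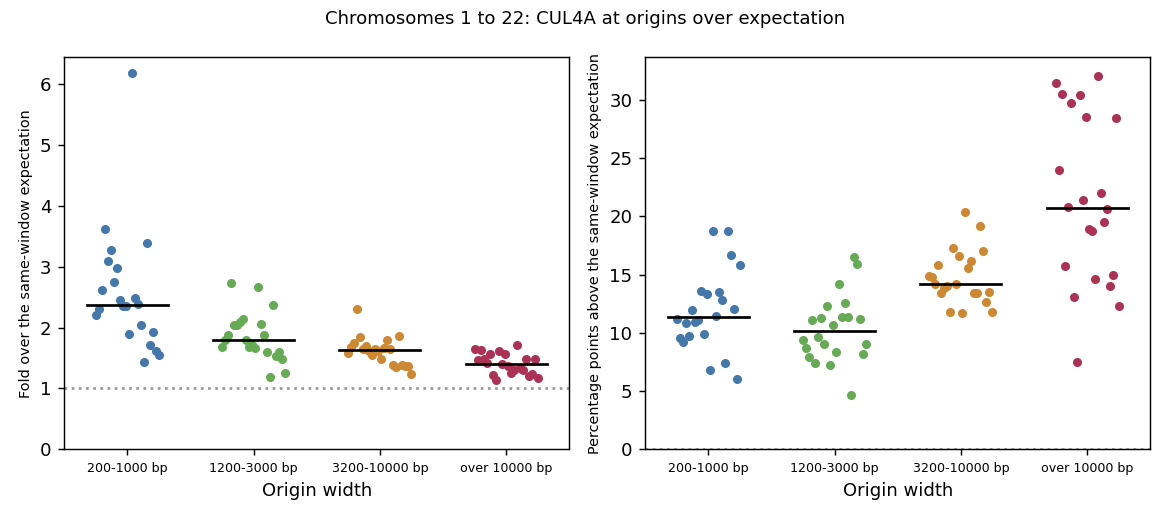
CUL4A occupancy over the local expectation on each of chromosomes 1 to 22 (points), by origin width, as a fold (left) and in percentage points (right), with horizontal lines at the medians. The dotted line at left marks a fold of 1, and all 88 points lay above it, with medians falling from 2.37 to 1.41 as width rose, whereas the points scale had its highest median, 20.7, in the widest class.

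Chromosomes differed widely in level. For all origins the occupied share had a median of 29.8% over the 22 chromosomes, from 19.3% on chromosome 4 to 55.8% on chromosome 22 (SD 9.27). Chromosome 22 was also the one with the lowest local fold, 1.25, and chromosome 4 the one with the highest, 2.66. In points above the local expectation the chromosomes lay closer together, from 9.61 on chromosome 5 to 17.7 on chromosome 18. For origins of 200-1000 bp, chromosome 13 stood apart with a local fold of 6.18, against a median of 2.37 and a lowest value of 1.44 on chromosome 17. For origins over 10000 bp the local fold ran from 1.13 on chromosome 8 to 1.71 on chromosome 15.

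Wide origins often held several islands. Origins over 10000 bp were 3.63% of all origins, yet they held 18.2% of origin sequence and 9.33% of the occupied origins. Of the occupied ones, 54.4% met more than 1 island, with a median of 2 and at most 15. At 3200-10000 bp this share was 13.2%, and no origin of 200-1000 bp met more than 1. Bases covered by CUL4A were 17.5% of the narrowest origins, slightly fewer at 1200-3000 bp with 16.7%, and more in the wider classes, with 24.2% at 3200-10000 bp and 42.0% over 10000 bp, against 5.75% of all bases in the 2711 windows that held an origin. The islands met by wide origins were longer. The widest island of an occupied origin had a median of 1600 bp in the narrowest and 6000 bp in the widest class. Wide origins met more islands to take the widest from, and this was not corrected for.

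Occupancy also followed the score the authors gave each origin, a whole number whose scale is not stated and which rises with width. Within each width class the origins were divided by score into 5 groups of equal size. At 1200-3000 bp the occupied share was 14.7% in the group of lowest scores and 38.0% in the highest. At 3200-10000 bp it was 20.4 and 63.6%. Among the narrowest origins the lowest 2 groups differed little, at 14.8 and 15.4%, and the highest reached 31.5%. The local fold rose as well, from 1.54 to 2.12 at 1200-3000 bp and from 1.24 to 1.65 at 3200-10000 bp. Width moved with the score inside the classes (median 3400 bp in the lowest and 7400 bp in the highest group at 3200-10000 bp). How much of the rise went with score rather than width was not tested. Over 10000 bp the share rose from 62.5 to 92.0%, while the local fold was 1.38 in the lowest and 1.24 in the highest group. Full occupancy would have been 2.21-fold in the lowest and only 1.34-fold in the highest group. The odds ratio against the local expectation was 2.02 and 3.96. The excess was 17.3 and 17.6 points, with 21.6 to 22.9 points in the groups between.

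The origins with the highest scores showed both outcomes. In hg19 coordinates counted from 1, the narrow origin with the highest score, 2709, was chr13:110076401-110077200, and it coincided in full with an island of the same 800 bp. In the same class, chr7:45291201-45291800 (score 891) was 66.7% covered by an island of 3600 bp and also met a CDT2 peak. At 1200-3000 bp, chr17:41399001-41401800 (score 1212) lay wholly inside an island of 3200 bp. The origin with the highest score of all, 68399, was chr1:564401-571200. It was wholly covered by an island of the same 6800 bp whose score, 33968, was also the highest in the CUL4A list. No region was filtered here for repeated sequence or mappability, so a high score at a single site may not reflect initiation or CUL4A. The widest origin, chr7:6490601-6708000, spanned 217400 bp, met 15 islands and was 49.0% covered. A region of that width would have met an island at 79.3% of the positions used on its chromosome.

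High-scoring origins without an island occurred at every width. Examples were chr12:95201-95800 (600 bp, score 1896), chr21:9825401-9827800 (2400 bp, score 5504) and chr18:76792401-76799800 (7400 bp, score 2765). The largest of those named, chr21:10698001-10767800, had a score of 7533 and met no island over 69800 bp, although a region of that width would have met one at 50.4% of the positions used on its chromosome. It met a CDT2 peak and an H3K9me3 peak. The lack of a filter for repeated sequence or mappability limits these sites as well.

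Next, origins were grouped by how many lay in the same 1 Mb window. The 2711 windows that held an origin had a median of 42 and at most 135. In the 728 windows of 1-20 origins, 1138 of 7335 origins were occupied, a share of 15.5% (14.7 to 16.4%). The share was 17.6% in windows of 21-40 origins, 21.6% in those of 41-60 and 27.5% in those of 61-80. In the 472 windows with over 80 origins it was 42.8% (42.4 to 43.3%). Occupancy thus rose with the number of neighbours. Windows over 80 origins had a higher share than windows of 1-20 on each of the 21 chromosomes that held both.

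CUL4A itself was more abundant where origins were dense. Islands covered 0.824% of the bases in windows of 1-20 origins and 16.9% in windows of over 80. The local expectation accordingly rose from 2.49% to 5.06, 9.49, 15.4 and 31.9%. The local fold fell from 6.24 to 3.48, 2.27, 1.79 and 1.34, and the densest windows had the lower fold on 21 of 21 chromosomes when set against the sparsest. The ceiling fell as well. Full occupancy would have been 40.2-fold in the sparsest and 3.13-fold in the densest windows. On the chromosome expectation the order was the opposite, with 2.09-fold in the sparsest and 2.64-fold in the densest windows, which was the higher one on 20 of 21 chromosomes.

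The odds ratio against the local expectation fell too, from 7.21 to 4.01, 2.62, 2.09 and 1.60. In percentage points the classes lay closer together. Origins lay 13.0 points above the local expectation in windows of 1-20 origins, 12.6 at 21-40, 12.1 at 41-60, 12.1 at 61-80 and 10.9 at over 80. The sparsest windows had the larger excess over the densest on 13 of 21 chromosomes and the smaller on 8. Across the 2028 windows with at least 20 origins, the number of origins followed the share occupied with a Pearson's r of 0.56 and a Spearman's rho of 0.55, and the number of islands with 0.76 and 0.75. It did not follow the share occupied minus the local expectation, with r = -0.08. These windows share 1 library per assay and neighbouring windows are not independent, so the coefficients are descriptions. Against the local expectation the fold, odds ratio and points were all lower in the densest than in the sparsest windows, the points only slightly. That expectation includes positions at the origins themselves, which take up more of a dense window than of a sparse one. Origins in dense windows are therefore set against a baseline that holds more origin sequence. The part of this in the fall was not tested. The fold over the chromosome expectation was higher in the densest windows. The direction with density thus depended on the expectation used.

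**Figure D3:**
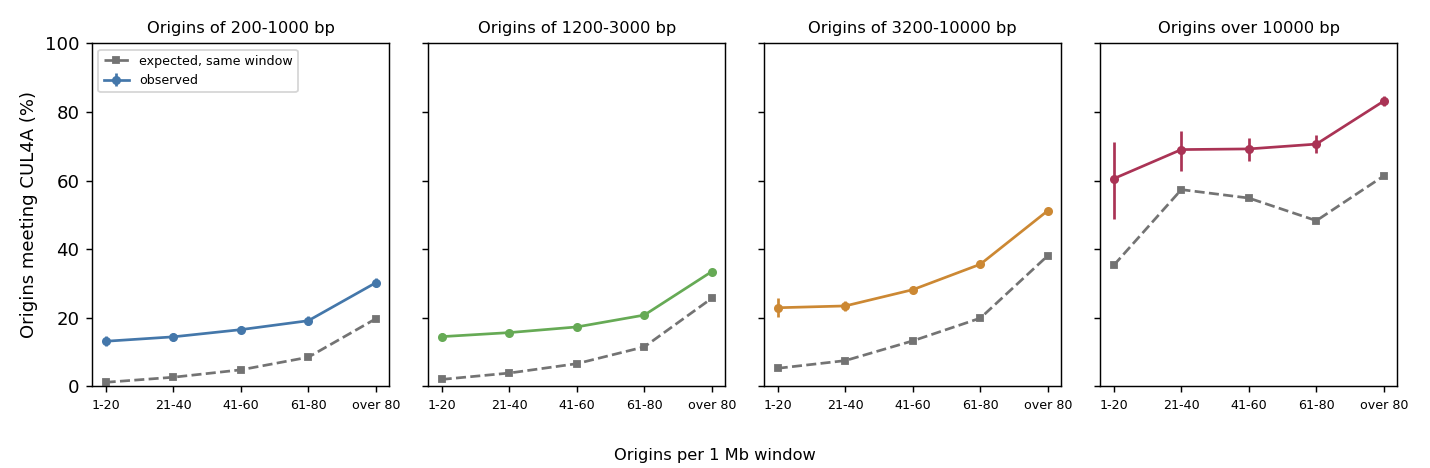
Share of occupied origins (y axis, %, with Wilson 95% intervals) by the number of origins in the same 1 Mb window (x axis), in a panel per width class, with the local expectation as a dashed line. Observed shares lay above the expectation in all 20 combinations of width and density, from 13.2% for the narrowest origins in the sparsest windows to 83.2% for the widest in the densest.

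Origins were wider in dense windows, with a median of 1600 bp at 1-20 origins and 2800 bp at over 80, and their median score was 65 against 117. The rise with density was nevertheless present inside each width class. For origins of 200-1000 bp the occupied share was 13.2% in the sparsest and 30.2% in the densest windows. At 1200-3000 bp it was 14.5 and 33.5%, and at 3200-10000 bp 22.9 and 51.2%. Over 10000 bp it was 60.6% (48.9 to 71.1%, 43 of 71 origins) and 83.2%, and the 3 densities between these lay within 69.0 to 70.6% with overlapping intervals. The local excess differed in course between the classes. It stayed between 10.5 and 12.0 points at all 5 densities for the narrowest origins. It fell from 12.5 points in the sparsest to 7.78 in the densest windows at 1200-3000 bp and from 17.6 to 13.1 at 3200-10000 bp. Over 10000 bp it was 25.2, 11.7, 14.3, 22.3 and 21.8 points in order of density.

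The distance to the nearest other origin gave the same direction for the occupied share. No origins lay closer than 800 bp, as the caller joins windows across gaps of up to 600 bp, and the median gap was 2800 bp. Origins with a neighbour within 2000 bp were occupied in 39.7% of cases, those at 2200 to 5000 bp in 28.6%, those at 5200 to 20000 bp in 20.6% and those farther away in 14.1%. For origins of 200-1000 bp alone the shares fell from 27.1% to 20.6, 15.6 and 12.7%. Isolated origins of all widths still lay 9.08 points above the local expectation of 4.98%, against 14.7 points for those with a close neighbour. On the other scales the order was the opposite. The local fold was 2.82 for isolated origins and 1.59 with a close neighbour, and the odds ratio 3.12 and 1.98. Here too the local expectation includes positions at the origins themselves, and the part of this was not tested.

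Single windows spanned the full range. The densest were chr9:139000001-140000000 and chr16:88000001-89000000, with 135 origins each, of which 91 and 87 were occupied, and chr3:13000001-14000000, with 87 of 132. Local expectations there were 56.9, 60.9 and 60.1%, and islands covered 34.4 to 37.4% of the window. The highest shares among windows of at least 20 origins were 21 of 23 in both chr7:2000001-3000000 and chr7:5000001-6000000. These windows held few but very wide origins, with medians of 20200 and 25600 bp. In the first the observed 91.3% was below the local expectation of 95.2%. At the other end, 29 windows with at least 20 origins had no occupied origin. One of them, chr2:124000001-125000000, held 36 origins and 2 islands, and the local expectation was 0.999%.

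Inside origins CUL4A covered the centre more often than the ends. For all origins of 3200-10000 bp, occupied or not, islands covered 24.9% of the central 10% and 18.96% of the outermost 10% on each side, a ratio of 1.31. The ratio was 1.28 over 10000 bp (41.6 and 32.4%), 1.26 at 1200-3000 bp (18.1 and 14.3%) and 1.12 at 200-1000 bp (18.6 and 16.6%), where an origin holds at most 5 steps of the grid. Left and right ends were alike, at 19.1 and 18.8% for 3200-10000 bp. When any 1 chromosome was left out the ratio for that class stayed between 1.31 and 1.32. Counted in bases from the nearest end, coverage in origins over 10000 bp was 26.1% in the first 200 bp, 35.9% at 1000 to 2000 bp and 40.5% at 3000 to 5000 bp.

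Coverage dropped at the edge of the origin and rose again farther out. For origins of 3200-10000 bp it was 12.4% in the first 200 bp outside, 9.67% at 600 to 1000 bp and 14.1% at 2000 to 5000 bp. Around origins over 10000 bp it was 19.3%, 16.8% and 25.4% at the same distances. Around the narrowest origins it was 11.1%, 6.81% and 7.52%. All these values were above the 5.75% of all windows that held an origin. The outer rise moved with the presence of other origins, which took up 5.80% of bases at 600 to 1000 bp and 32.2% at 2000 to 5000 bp from origins of 3200-10000 bp, and which cannot lie within the first 600 bp. Its part in the rise was not tested.

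**Figure D4:**
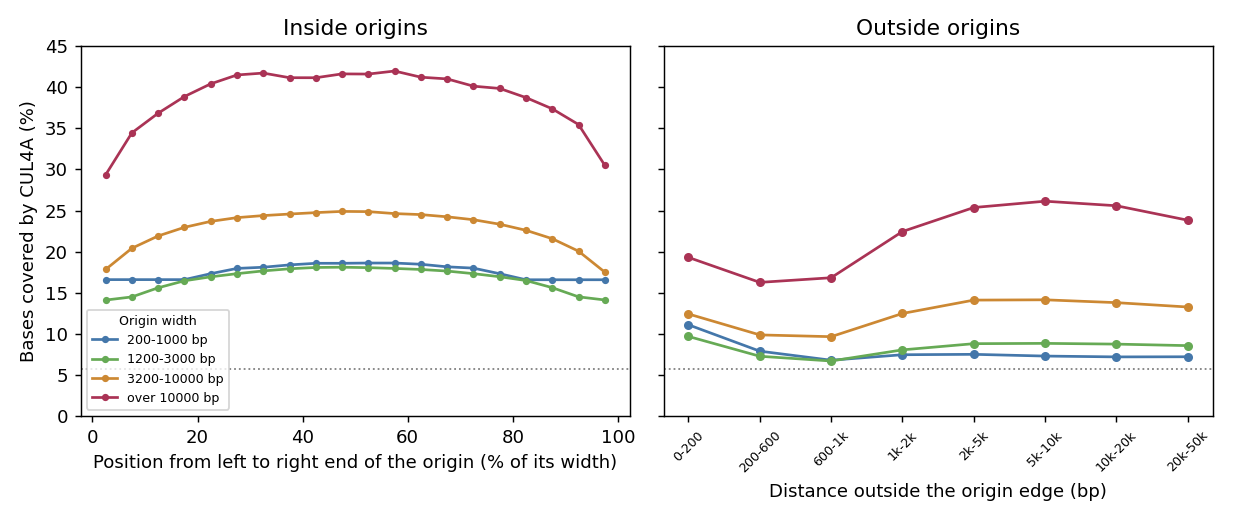
Bases covered by CUL4A islands (y axis, %) from the left to the right end of an origin (left, x axis in % of its width, 20 steps) and in bins of distance outside either edge (right, x axis in bp), for all origins of each width class. The dotted line is the 5.75% of bases covered in all windows holding an origin. Coverage was higher in the middle of origins than at their ends, fell to its lowest between 200 and 1000 bp outside and was higher again from 2000 bp on in the 3 wider classes, most around origins over 10000 bp.

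How island and origin lay to each other changed with width. Of the 3738 pairs at origins of 200-1000 bp, the island spanned the whole origin in 60.97% and lay wholly inside it in 20.6%. At 1200-3000 bp these were 31.3 and 33.8%, at 3200-10000 bp 9.17 and 52.0%, and over 10000 bp 1.03 and 74.1%. In 331 pairs of the narrowest class, 8.86%, island and origin had identical ends, against 4 pairs in the widest. Origins covered in full were 2610 of 18949 in the narrowest class (13.8%) and 72 of 4572 in the widest (1.57%). Of all 43068 pairs, the middle of the island lay inside the origin in 78.4%.

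Small islands did not show this central maximum. Those that lay wholly inside an origin and were at most 20% of its width lay more often towards the ends. At 3200-10000 bp, 735 of 2029 such islands (36.2%, 34.2 to 38.3%) had their middle in the central 50% of the origin, where positions spread evenly over the grid would place 46.9%. Over 10000 bp, 1090 of 2562 (42.5%, 40.6 to 44.5%) did, against 49.1%. Both intervals lay below the even spread, but they treat islands as independent. The even spread also allows positions that larger islands already hold, and positions that the caller would have joined to them. Islands of all sizes together covered the centre more than the ends. The part of these limits in the shortfall was not tested.

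Seen from the islands, 38872 of 55717 (69.8%) met an origin. Of islands of 200 to 600 bp, 44.7% met an origin, and of those above 10000 bp 98.5%. Islands whose widest origin was over 10000 bp numbered 6460, or 11.6% of all. They had a median width of 4200 bp and a median score of 151, whereas the 16845 islands with no origin had 1400 bp and 40. Medians were 1200 bp and 55 at origins of 200-1000 bp, 1800 bp and 63 at 1200-3000 bp, and 2800 bp and 89 at 3200-10000 bp. A long island meets an origin, and a wide one, more often by its length alone. Scores rose with island width, from a median of 29 at 200 to 600 bp to 541 above 10000 bp. No expectation by island width was computed, so these orders are not read as a preference.

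To see which features of occupancy belonged to CUL4A, the other U2OS lists were treated in the same way. CDT2, the DCAF that directs CRL4 to CDT1, met 12.3% of all origins. Its share also rose to the widest class, from 11.3% at 200-1000 bp to 35.8% over 10000 bp, but its fold over the chromosome expectation fell from 7.63 to 3.37, 2.40 and 2.14. H3K9me3, a mark of heterochromatin and late replication, met 19.1% of origins and fell from 5.33-fold to 1.72-fold. H3K4me3, a mark of active promoters and early replication, met 11.7% and lay between 2.10 and 2.39-fold in all classes. The local fold fell from the sparsest to the densest windows for all 4 lists, from 7.85 to 1.71 for CDT2, 5.20 to 1.63 for H3K9me3 and 4.14 to 1.39 for H3K4me3, beside 6.24 to 1.34 for CUL4A. The lists differ in peak width and in how they were called, with a median of 554 bp for CDT2 and 322 bp for H3K9me3, so sizes of folds are not compared between them.

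Origins that met CDT2 were more often occupied by CUL4A at every width. The share was 58.9% with and 14.8% without CDT2 at 200-1000 bp, 64.1 and 18.6% at 1200-3000 bp, 76.2 and 34.4% at 3200-10000 bp and 90.4 and 69.0% over 10000 bp. Conversely, CDT2 was found at 33.6% of the occupied and 5.77% of the unoccupied origins of the narrowest class. H3K9me3 divided origins in the same direction (47.3 and 15.3% occupied at 200-1000 bp), as did H3K4me3 (43.0 and 18.02%). Median widths with and without CDT2 were equal in the 2 narrower classes. They were 5000 and 4400 bp at 3200-10000 bp, and 14800 and 12800 bp over 10000 bp. Neither width, score nor origin density was held fixed within the classes in these divisions, and their part was not tested. Origins that met none of these 3 lists were still occupied above the local expectation, by 1.43-fold at 200-1000 bp and by 1.16, 1.13 and 1.15-fold in the wider classes. They were 14235, 46242, 23098 and 1205 origins in order of width.

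**Figure D5:**
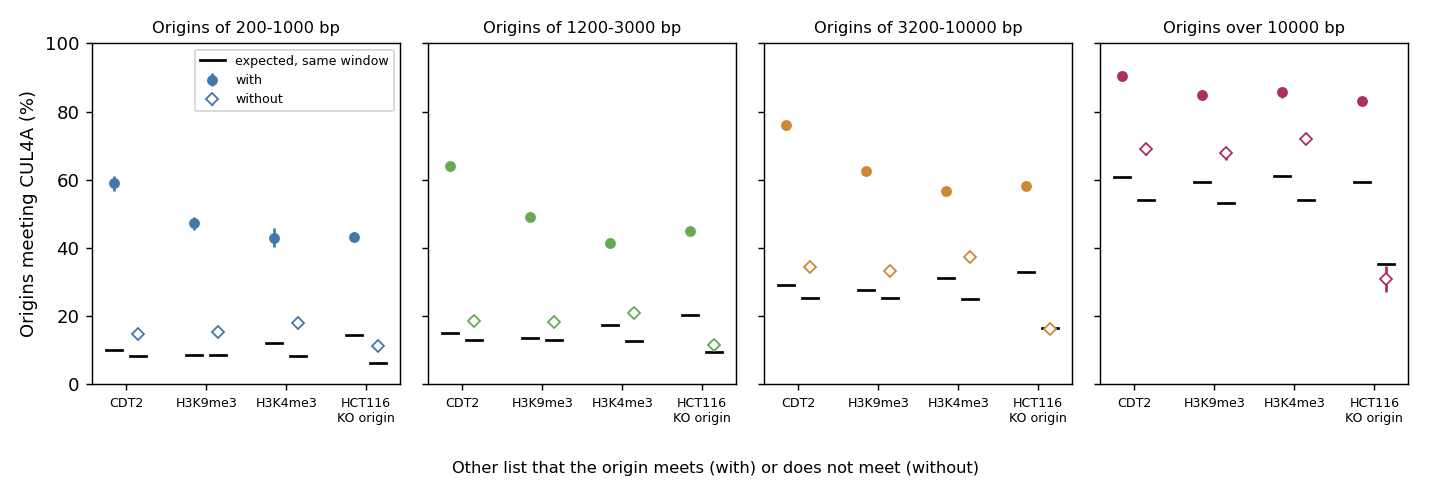
Share of U2OS origins occupied by CUL4A (y axis, %) for origins that met (filled circles) or did not meet (open diamonds) a CDT2, H3K9me3, H3K4me3 or HCT116 RepID KO origin region (x axis), in a panel per width class, with Wilson 95% intervals and bars at the local expectation. Origins that met a region were the more often occupied in all 16 comparisons, and origins over 3000 bp without an HCT116 RepID KO origin lay at or below the local expectation. That expectation also includes positions that would meet such an origin.

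Finally, U2OS origins were divided by whether they met an origin of HCT116 RepID KO cells, which 42.2% of them did. With and without such an origin, CUL4A occupancy was 43.3 and 11.3% at 200-1000 bp, 45.1 and 11.4% at 1200-3000 bp, 58.2 and 16.2% at 3200-10000 bp and 83.1 and 30.9% over 10000 bp. Relative to the local expectation, origins that met none went from above to below with width. They were 1.78-fold above it at 200-1000 bp and 1.20-fold at 1200-3000 bp, at 0.98-fold (0.95 to 1.01) for 3200-10000 bp, and at 0.87-fold (0.77 to 0.98) for the 560 origins over 10000 bp. Those called in both lists were at 2.98, 2.23, 1.77 and 1.40-fold. The local expectation takes in every position, also those that would meet an HCT116 RepID KO origin. Such positions made up 15.6% for origins of 200-1000 bp and 65.1% for those over 10000 bp. Origins that met none are therefore set against an unlike baseline, more so with width. Their folds do not show occupancy at or below chance.

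Shared origins had higher scores and denser surroundings. At 3200-10000 bp the median score was 201 with and 150 without an HCT116 RepID KO origin, and the median number of origins in the window 86 and 67. The difference in occupancy was present in each of the 5 score groups of each width class. At 1200-3000 bp it was 36.6 against 8.02% in the group of lowest scores and 55.01 against 19.95% in that of highest scores. At 3200-10000 bp the same groups gave 40.1 against 9.22% and 72.1 against 28.7%. The lists of HCT116 and U2OS origins differ in cell line and in RepID, and the parts of these cannot be told apart.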

How the data were processed

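Regions enriched in nascent strands or in ChIP-Seq were used as the authors deposited them, in hg19 and called with SICER or MACS per the submitters' processing notes. Methods give SICER windows of 200 bp, gaps of 600 bp and false discovery rates of 1e-05 for CUL4A and 0.01 for origins. Deposited values were positions and a score of the authors, of unstated scale, used to rank or divide regions within a list. The deposited fold enrichment (a ratio), −log10 p and −log10 q of the histone lists were not used. Neither reads nor library totals were analysed, so depth is unknown.

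Overlaps (at least 1 bp), calculated expectations, coverage and Wilson intervals were computed with Python 3.11.15, NumPy 2.4.6 and SciPy 1.17.1, plots with matplotlib 3.10.9. The routines for overlap, expectation, allowed gap, coverage and the profile inside origins were tested on simulated data. An origin belonged to the fixed 1 Mb window that held its midpoint. Named origins were, per width class, the 3 occupied and 2 unoccupied origins with the highest scores. Named windows were the 3 with most origins and the 3 with the highest and lowest shares among those with at least 20. Some of these are given in the text. Members, classes and lists were chosen with earlier results of these data known. Division by score, gap to the next origin, small islands and other lists was added after the data had been seen. No gene was assigned, because the annotation at hand is of another build. Samples of inputs and SKP2 were not used here. Alternatives covered the overlap rule, allowed gap, island strength, origin width, positions in the expectation, window size and chromosomes.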

Additional observations from a re-analysis of the deposited data

How the results depend on the processing

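Enrichment above expectation kept its direction for each width and density class, and coverage stayed higher at the centre than at the ends, under the alternatives computed for each, but most values moved. Centre to edge ratios were recomputed only for the stronger islands, chromosome X, the 20% parts and each chromosome left out, and window sizes only for the density classes. With at least 50% of the origin covered, the occupied share was 20.3%, the fold 3.01 for the narrowest and 7.74 for the widest origins, and the local fold 9.98 in windows of 1-20 and 1.77 in windows of over 80 origins. A gap of up to 1 kb gave 33.2%, 1.93, 2.22, 4.25 and 1.21 in the same order. The stronger 50% of islands gave 19.9%, 2.11 and 3.26, with local folds of 6.12 and 1.33 and a centre to edge ratio of 1.36 at 3200-10000 bp. Replacing each origin by 1 kb around its centre gave 24.3%, 2.52, 4.53, 7.87 and 1.60. Under these 4 settings the widest origins had the higher fold over the chromosome expectation, whereas with positions of the whole chromosome (2.90 and 2.55) or of the same window (2.32 and 1.36) the narrowest did, as in the report. Windows of 500 kb gave a local fold of 1.30 in the densest class, and windows of 2 Mb gave 6.91 and 1.36 in the sparsest and densest. With the outer and central 20% the centre to edge ratio was 1.20. Adding chromosome X moved no value by more than its counting error.

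Leaving out each chromosome in turn gave shares of 29.0 to 30.5%, folds of 2.63 to 2.79 for the narrowest and 2.28 to 2.49 for the widest origins, local folds of 6.08 to 6.56 in the sparsest and 1.34 to 1.36 in the densest windows, and ratios of 1.31 to 1.32. No paired analysis was possible because each assay has 1 sample and the groups share fewer than 2 replicate numbers. Each value compares 2 lists of called regions and has no replicate, the number of reads behind an unoccupied origin is unknown, and an origin without an island is one at which none was called.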

Other observations

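Origins of HCT116 RepID KO cells were set against the CUL4A islands of U2OS RepID WT cells in the same way. Of the 83872 HCT116 RepID KO origins, 33301 (39.7%) met a U2OS CUL4A island, and the share rose with width from 23.8% at 200-1000 bp to 31.9% at 1200-3000 bp, 56.0% at 3200-10000 bp and 91.4% over 10000 bp. The folds over the chromosome expectation were 3.11, 2.97, 3.13 and 2.69, and those over the local expectation 2.39, 1.97, 1.76 and 1.44. Each of these folds was above the value of the U2OS origins of the same width, which came from the same cell line as the CUL4A list. At 200-1000 bp the intervals of the local fold overlapped (2.33 to 2.45 for HCT116 RepID KO and 2.25 to 2.39 for U2OS). The lists also differ in size, with 83872 and 126050 origins, and the part of this was not tested. Whether the folds of the 2 origin lists differ beyond a replicate spread was not tested, since each list is 1 sample.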
